A study of Mus musculus with 14 samples.

Results

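The cytosolic ribosomal protein genes encode the protein part of the ribosomes that work outside mitochondria. They were taken from the count table of a mouse lung tumor series by symbol: Rpl or Rps followed by a number, with an optional letter a, x, y or l and further digits, and the symbols Rplp0, Rplp1, Rplp2 and Rpsa. Of 55291 rows, 89 matched, 53 of the large and 36 of the small subunit, while 319 rows ending in -ps (pseudogenes) and the Rps6k kinases were left out. GENCODE M21 calls 83 of the 89 protein coding and 6 pseudogenes (Rpl32l, Rpl6l, Rps12l1, Rps3a2, Rps3a3 and Rps4l). Of the 89, 87 had enough counts to be tested (not Rpl10l and Rps12l1), and 88 had a TPM value (not Rpl32l). Among the ribosomal proteins that the rule misses are Fau, Rpl36al and Rack1, whose values are given below.

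Lung tumor nodules, snap frozen, gave the total RNA for all 14 libraries. The mice were C57BL/6 with the genotype HER2 Exon20YVMA, an insertion in the kinase domain of the receptor HER2. Long-term treatment was with vehicle (n = 2), mobocertinib (also called TAK-788, an inhibitor of the EGFR and HER2 kinases; n = 3), T-DM1 (a HER2 antibody that carries a microtubule poison; n = 3) or the combination (n = 3), and 3 more libraries came from nodules with acquired resistance to mobocertinib monotherapy. The sources used here give no dose, time, age, or promoter that drives the transgene. The labels do not say that libraries came from separate animals, and a p-value then speaks only of how far these samples spread, which may be technical. All 4 comparisons with vehicle share the same 2 vehicle libraries and are not independent of each other.

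A ribosome is built from ribosomal RNA and one copy of most ribosomal proteins, so these genes are expressed together and at high levels in growing cells. Their messenger RNAs typically begin with a C followed by a run of pyrimidines, the 5′ terminal oligopyrimidine (TOP) motif, through which the kinase mTOR controls their translation. mTOR acts downstream of receptors such as HER2. Many of them also have processed pseudogenes, copies of the messenger RNA scattered through the genome, so that a read may fit several places.

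Starts of 64 of the 89 genes were found among the promoter windows of RefSeq (GRCm38.p6), 54 of them with 1 annotated start. A C followed by at least 4 further C or T, read from the annotated start itself, was found in 14 of these 64 (21.9%) and in 3.01% of all 27025 genes with a window. The motif CCGGAAG, on either strand of the 300-base window, was found in 26 (40.6%), and in 9.93% of all genes with a window. A match is a description of the letters, and a start that is annotated a few bases off hides a run. The 4 starts below with a run and the 3 without belong to genes described later: Rps6, Rplp2 and Rps27 for their role or level, and Rps10, Rpl22l1, Rpl4 and Rpl7l1 for being among the largest or smallest differences from vehicle. Each is 30 bases from 10 before the start, with the run at the start in capitals. The capital in Rpl7l1 is a C with no C or T after it, which was not counted as a run.
Rps6 (chr4:86857348-86857377, minus strand): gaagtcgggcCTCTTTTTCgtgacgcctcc
Rps10 (chr17:27635225-27635254, minus strand): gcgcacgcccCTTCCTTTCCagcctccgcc
Rps27 (chr3:90213629-90213658, minus strand): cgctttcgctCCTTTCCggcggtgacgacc
Rplp2 (chr7:141447641-141447670, plus strand): cagcgtcttcCTTTCgccgccggacgccgc
Rpl22l1 (chr3:28805498-28805527, plus strand): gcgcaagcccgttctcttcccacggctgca
Rpl4 (chr9:64173377-64173406, plus strand): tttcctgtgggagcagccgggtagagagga
Rpl7l1 (chr17:46782637-46782666, minus strand): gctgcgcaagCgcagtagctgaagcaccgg

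Library totals ran from 19.3 to 31.3 (in units of 1e6 counts). The make-up of the RNA differed between vehicle and the remaining 12 libraries. Messenger RNAs under 1 kb that are not ribosomal protein genes made up 23.7% and 28.8% of counts in the vehicle libraries, and 8.92% to 15% in the others, and those over 5 kb took 3.96% and 2.81% against 9.23% to 15.1%. Summed normalized levels of 2 lists of lung cell markers were higher in vehicle than in every other library. The 8 alveolar type 2 markers stood at 96860 and 114700 CPM (counts per 1e6 counts, normalized) against 10620 to 82810, and the 10 alveolar macrophage markers at 4788 and 6763 against 510.6 to 4084. Those of neutrophils (8 markers, 1081 and 4951 CPM against 6103 to 83690), endothelial cells (8 markers, 170.7 and 201.2 against 419.4 to 1045) and fibroblasts (7 markers, 154 and 194 against 345.3 to 4490) were lower. The normalization divides by a scaling factor (TMM) of 0.677 and 0.542 in vehicle and 0.988 to 1.23 elsewhere, which raises vehicle. As plain shares of counts, T-DM1 2 would stand above both vehicle libraries in alveolar type 2 markers. In alveolar macrophage markers, mobocertinib 3 would stand above both vehicle libraries and T-DM1 2 above vehicle 2. A sum is led by its most abundant genes: 1 of the 8 alveolar type 2 genes was called lower in each comparison, and of the 8 neutrophil genes 1 to 4 were called lower and 0 higher. Among all genes tested, 14.9% to 19.0% were called lower and 16.7% to 22.0% higher in these comparisons. No marker was at 0 in all libraries. Counts of the ribosomal RNA gene CT010467.1 took 1.88% and 5.32% in vehicle and 0.0887% to 0.807% elsewhere. The part of these differences in the results below was not tested, and treatment, RNA class and cell content cannot be told apart for vehicle. In bulk nodules, fewer cells of a type and less RNA per cell cannot be told apart either.

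Ribosomal protein genes took a 3.31 to 4.63 times larger share of the counts in vehicle than in the other groups. Their share was 20.7% and 21.6% in vehicle 1 and 2. It was 6.57%, 7.79% and 4.83% in mobocertinib 1 to 3, and 5.28%, 5.33% and 5.33% in T-DM1 1 to 3. In combination 1 to 3 it was 3.79%, 6.07% and 6.81%, and in resistant 1 to 3 it was 4.90%, 4.42% and 4.41%. No library of another group came near the vehicle libraries, whereas the ranges of the other 4 groups overlapped, apart from T-DM1 and resistant. The 95% Wilson interval of a share is at most 0.0324 percentage points wide and covers counting error only. Every group held replicates whose intervals did not overlap, and the mobocertinib and combination groups were the most spread. Group means were 21.2% ± 0.658 (SD, n = 2) in vehicle, 6.40% ± 1.49 in mobocertinib, 5.31% ± 0.0272 in T-DM1, 5.56% ± 1.58 in the combination and 4.58% ± 0.28 in resistant nodules (SD, n = 3 each).

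**Figure D1:**
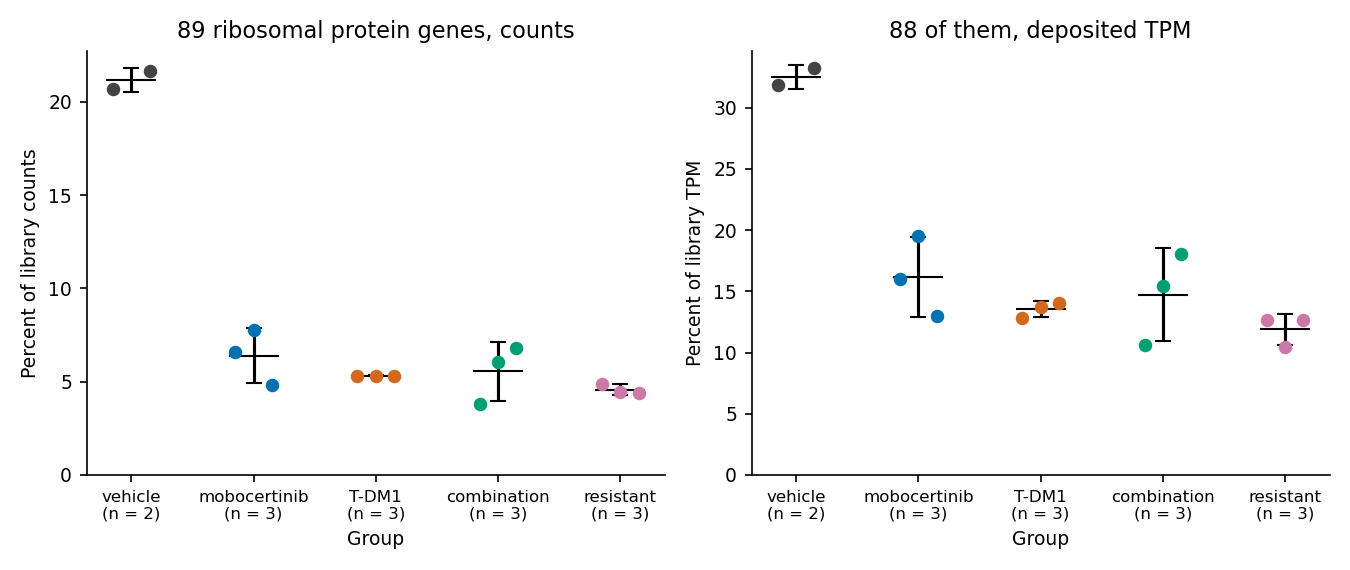
Percent of a library's counts in the 89 ribosomal protein genes (left) and percent of its deposited TPM in 88 of them (right), by group. Points are libraries, and the bar and whiskers give the mean and SD. Vehicle stands at 20.7% and 21.6% of counts against at most 7.79% elsewhere, and at 31.8% and 33.2% of TPM against at most 19.5%.

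Both subunits shared in the difference. The large subunit genes made up 10.6% and 10.8% of counts in the vehicle libraries, and 2.12% to 3.99% in the others, and the small subunit genes took 10.1% and 10.9% against 1.67% to 3.8%. The ratio of large to small subunit counts was 1.05 and 0.987 in vehicle and 1.05 to 1.31 in the other 12 libraries, with resistant 2 and 3 highest (1.30 and 1.31) and mobocertinib 2 lowest (1.05) among the 12. In the TPM table, where values are already adjusted for transcript length, the share was 31.8% and 33.2% in vehicle, 12.9% to 19.5% in mobocertinib, 12.8% to 14.1% in T-DM1, 10.6% to 18.1% in the combination and 10.4% to 12.6% in resistant nodules. The vehicle mean there was 2.01 to 2.74 times that of another group. The 319 pseudogene rows left out accounted for 0.254% and 0.177% of counts in vehicle and for 0.0292% to 0.0592% in other groups.

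Gene by gene, by edgeR's quasi-likelihood test with Benjamini-Hochberg adjustment over all genes and a threshold of 0.05, nearly all members were lower than in vehicle, and none was higher. Of the 87 tested, 83 fell in mobocertinib, where 16.1% of all 17933 genes tested were called lower, with a median log2 fold change of −2.51 (all genes 0.091). In T-DM1 84 fell, beside 14.9% of all genes, with a median of −2.71. In the combination 85 fell, beside 17.4%, with a median of −2.68, and in resistant nodules 82 fell, beside 19.0%, with a median of −2.98. In each comparison 0 of 87 rose, where 16.8%, 16.7%, 17.6% and 22.0% of all genes were called higher. Of the 82 protein-coding members tested, 79, 80, 81 and 79 fell. Fold changes and CPM include the TMM factors given above, which raise vehicle, so the falls are larger than by plain share of counts. In normalized CPM, every one of the 12 other libraries lay below both vehicle libraries in 85 of the 87 genes. This was so for 18.8% of all genes tested, and in 0 genes every one lay above both, against 20.4%. The exceptions were Rpl39l and Rps4l. As plain shares of counts, the members overlapping with vehicle would also include Rps2, Rpl29, Rpl23, Rpl7l1, Rpl4 and the pseudogene Rpl6l. Rpl39l and Rps4l did not pass in any comparison. The other members that did not pass were Rpl29 and Rpl3l in mobocertinib, Rps2 in T-DM1, and Rpl29, Rpl4 and the pseudogene Rpl6l (−1.63 ± 0.648, adjusted p = 0.0597) in resistant nodules.

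**Figure D2:**
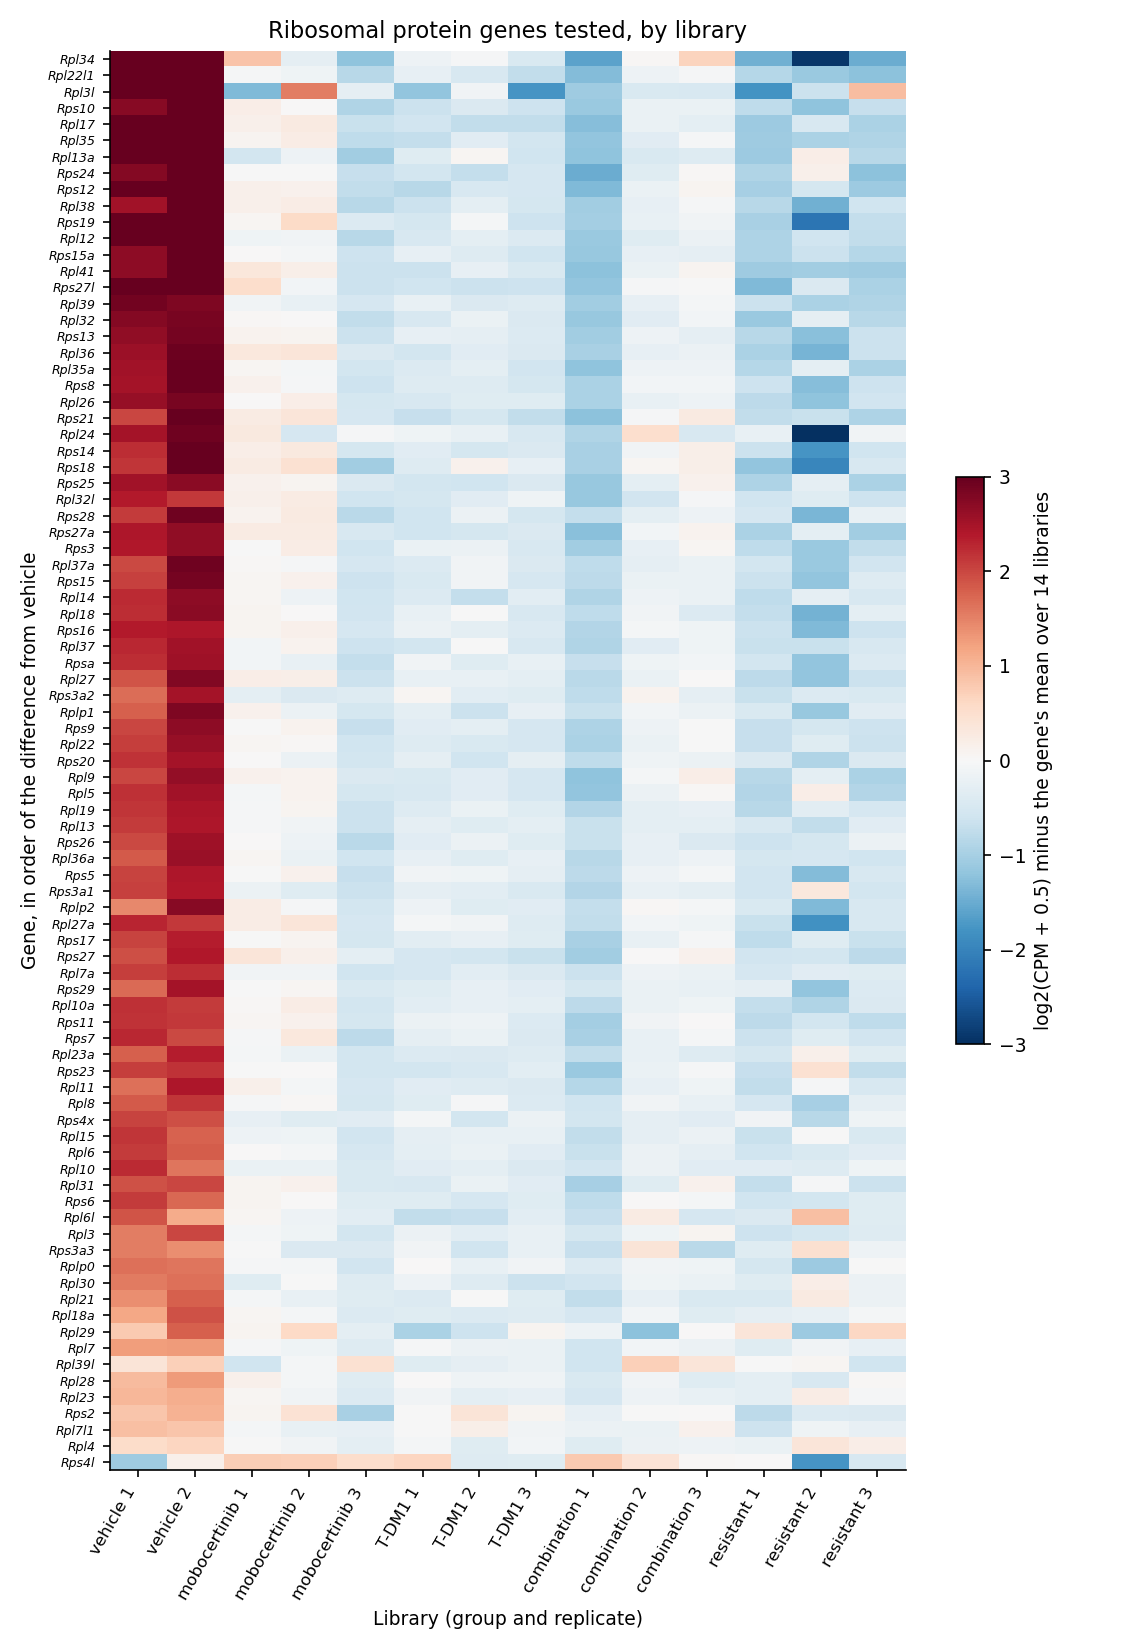
Level of each of the 87 tested genes in each library, on the log2(CPM + 0.5) scale relative to its own mean of all 14 libraries, with genes in order of their difference from vehicle. Both vehicle columns are high for nearly every gene, combination 1 is the lowest of the 12 other libraries for 43 genes and resistant 2 for 32.

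The stalk proteins Rplp0, Rplp1 and Rplp2 bind the elongation factors at the large subunit. Rplp0 stood at 6466 and 6243 CPM in vehicle and at 1983, 1968 and 1371 in mobocertinib, 2053, 1765 and 1906 in T-DM1, 1526, 1897 and 1858 in the combination and 1429, 958.9 and 2014 in resistant nodules. The vehicle libraries were apart from all others, and the other groups overlapped. Rplp0 fell by 1.84 ± 0.32 (SE; adjusted p = 0.00134) in mobocertinib on the log2 scale, with a range of −2.12 to −1.74 over the 4 comparisons. Rplp1 stood at 5182 and 10420 CPM in vehicle and at 676.8 to 1636 elsewhere, and fell by 2.56 ± 0.372 (adjusted p = 0.000508) in mobocertinib. Rplp2 stood at 2238 and 5466 CPM in vehicle and 328.3 to 948.2 elsewhere, and fell by 2.33 ± 0.406 (adjusted p = 0.00135). For Rplp1 and Rplp2 vehicle 2 was well above vehicle 1. From TPM, Rplp0 did not pass in any of the 4 comparisons (−0.50 to −0.11).

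Rps6, the small subunit protein that S6 kinases phosphorylate downstream of mTOR, stood at 2325 and 1790 CPM in vehicle and at 576.5, 547.5 and 423.6 in mobocertinib, 423.3, 383.8 and 422.3 in T-DM1, 324.1, 553.2 and 527.4 in the combination and 361.4, 369.9 and 427.4 in resistant nodules. It fell in all 4 comparisons, by 2.0 ± 0.272 (adjusted p = 0.000405) in mobocertinib and by 2.41 ± 0.274 (adjusted p = 7.65e-05) in resistant nodules. Its RefSeq start carries the pyrimidine run shown above. Among the 53 tested genes with a single annotated start, the median log2 fold change of the mean of the 4 groups against vehicle was −2.92 for the 12 with such a run and −2.71 for the 41 without, with ranges of −3.90 to −1.29 and −4.15 to −0.70.

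Rpl5 and Rpl11 bind MDM2 when ribosome assembly fails, which stabilizes p53. Rpl5 stood at 3626 and 4563 CPM in vehicle and at 349.3 to 913.7 elsewhere, with its highest value outside vehicle in resistant 2. It fell by 2.51 ± 0.408 (adjusted p = 0.00092) in mobocertinib and by 2.79 ± 0.411 (adjusted p = 0.000285) in resistant nodules. Rpl11 stood at 2218 and 3793 CPM in vehicle and at 390.5 to 775.2 elsewhere, and fell by 2.21 ± 0.329 (adjusted p = 0.000571) in mobocertinib and 2.49 ± 0.331 (adjusted p = 0.000161) in resistant nodules. No library of another group reached either vehicle value for these genes.

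Rps19, mutated in Diamond-Blackfan anemia, stood at 7853 and 9499 CPM in vehicle, at 1035, 1478 and 745.5 in mobocertinib, 690.4, 957.4 and 650.9 in T-DM1, 489.2, 851.9 and 926.2 in the combination and 508.4, 216.1 and 610.2 in resistant nodules. Resistant 2 was the lowest of all libraries and mobocertinib 2 the highest outside vehicle. Rps19 fell by 3.0 ± 0.452 (adjusted p = 0.000623) in mobocertinib and by 4.29 ± 0.473 (adjusted p = 6.54e-05) in resistant nodules. Rps27a, made as a fusion with ubiquitin, stood at 5652 and 6698 CPM in vehicle and 443.6 to 1245 elsewhere. Rpsa, also known as a laminin receptor, stood at 5552 and 7048 CPM in vehicle and 531.2 to 1134 elsewhere. They fell by 2.52 to 3.28 and by 2.62 to 3.07 over the 4 comparisons.

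Levels can be compared between genes only per length, in the TPM table. The highest mean TPM, with equal weight per group, was that of Rpl41, at 9245, which has the shortest coding sequence of the family (75 bases). Then came Rps27 (5865), Rps24 (5460), Rplp1 (4933), Rpl13a (4921) and Rps19 (4305). The order differed between groups: in resistant nodules the means of Rps27 (4039) and Rpl41 (3994) were close, and in vehicle Rps24 (12580) and Rps19 (9221) were above Rps27 (8864). The place of Rpl13a rests on TPM that are 43.7 times the level its counts give (median over libraries), and that of Rps24 on TPM 3.50 times that level. Rpl41 stood at 19650 and 23160 TPM in vehicle and at 3075 to 9795 elsewhere, and its counts fell by 3.0 ± 0.409 (adjusted p = 0.000405) in mobocertinib and by 4.07 ± 0.424 (adjusted p = 5.91e-05) in resistant nodules. Rps27 stood at 8814 and 8913 TPM in vehicle and at 3397 to 7321 elsewhere. Both vehicle libraries were still the highest on this scale, where Rps27 did not pass in mobocertinib (−0.44) or the combination (−0.73) on log2(TPM + 1). Rps24, whose transcripts are spliced in several forms, stood at 11950 and 13210 TPM in vehicle and 1957 to 5327 elsewhere. At the other end, among the members tested, the pseudogenes Rps3a2 and Rps3a3 and the testis-type copy Rpl39l had means of 0.245, 0.46 and 0.485 TPM, and Rps3a3 lost its call in every comparison with vehicle when vehicle 2 was left out (adjusted p = 0.0559 to 0.0944).

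The largest falls, by the mean of the 4 groups against vehicle, were those of Rpl34 (−4.53), Rpl22l1 (−4.15), Rpl3l (−4.01) and Rps10 (−3.90). Rpl34, a large subunit protein on chromosome 3 (130726831 to 130730398, GENCODE M21 on mm10), stood at 5833 and 7806 CPM in vehicle. It was at 758.3, 345.6 and 182.0 CPM in mobocertinib, 375.4, 405.3 and 303.6 in T-DM1, 136.3, 428.7 and 664.4 in the combination and 152.9, 55.12 and 148.9 in resistant nodules. The 3 resistant libraries were below all of mobocertinib and T-DM1, and overlapped with combination 1. Its fall was 3.99 ± 0.684 (adjusted p = 0.00123) in mobocertinib and 5.84 ± 0.737 (adjusted p = 0.00012) in resistant nodules. Rps10, a small subunit protein on chromosome 17 (27630418 to 27636669), stood at 286.7 and 612.3 CPM in vehicle and 18.43 to 49.91 elsewhere. Of its transcript's 50-base stretches, 92.4% are also found in transcripts of other genes, so its counts are uncertain.

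The smallest falls were those of Rps2 (−1.06), Rpl7l1 (−1.01) and Rpl4 (−0.70), while Rps4l stood at 0.49 above vehicle and did not pass. Rpl4, a large subunit protein with the longest coding sequence of the family (1257 bases; chromosome 9, 64173375 to 64178666), stood at 1922 and 2049 CPM in vehicle and at 1300, 1219 and 1061 in mobocertinib, 1263, 1018 and 1242 in T-DM1, 1021, 1156 and 1184 in the combination and 1146, 1678 and 1498 in resistant nodules. All 12 were below vehicle in normalized CPM, with resistant 2 and 3 nearest to it. As plain shares of counts, without the TMM factors, mobocertinib 2, T-DM1 1 and 3, combination 3 and every resistant library would stand above both vehicle libraries. T-DM1 2 would stand below both. The direction of the Rpl4 difference from vehicle thus depends on these factors. Rpl4 fell by 0.73 ± 0.249 (adjusted p = 0.0385) in mobocertinib, 0.76 ± 0.249 (adjusted p = 0.0351) in T-DM1 and 0.83 ± 0.249 (adjusted p = 0.0221) in the combination, and differed by −0.46 ± 0.25 (adjusted p = 0.152) in resistant nodules. None of its calls held when any single library of the compared groups was left out (adjusted p = 0.0505 to 0.228). Rps2, near the decoding site of the small subunit, stood at 1195 and 1382 CPM in vehicle and 344.6 to 911.2 elsewhere. It passed in mobocertinib (adjusted p = 0.0423), the combination (adjusted p = 0.0339) and resistant nodules (adjusted p = 0.00432). The first 2 calls were lost without either vehicle library, the call in mobocertinib without mobocertinib 1 or 3, and that in the combination on leaving out any one of its libraries (adjusted p = 0.0679 to 0.239 for the first and 0.0684 to 0.214 for the second). Rpl7l1, a paralog of Rpl7, stood at 165 and 158.1 CPM in vehicle and 57.11 to 99.73 elsewhere, and fell by 1.05 ± 0.205 (adjusted p = 0.00248) in mobocertinib. Its call in T-DM1 was lost without vehicle 2 (adjusted p = 0.0557).

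**Figure D3:**
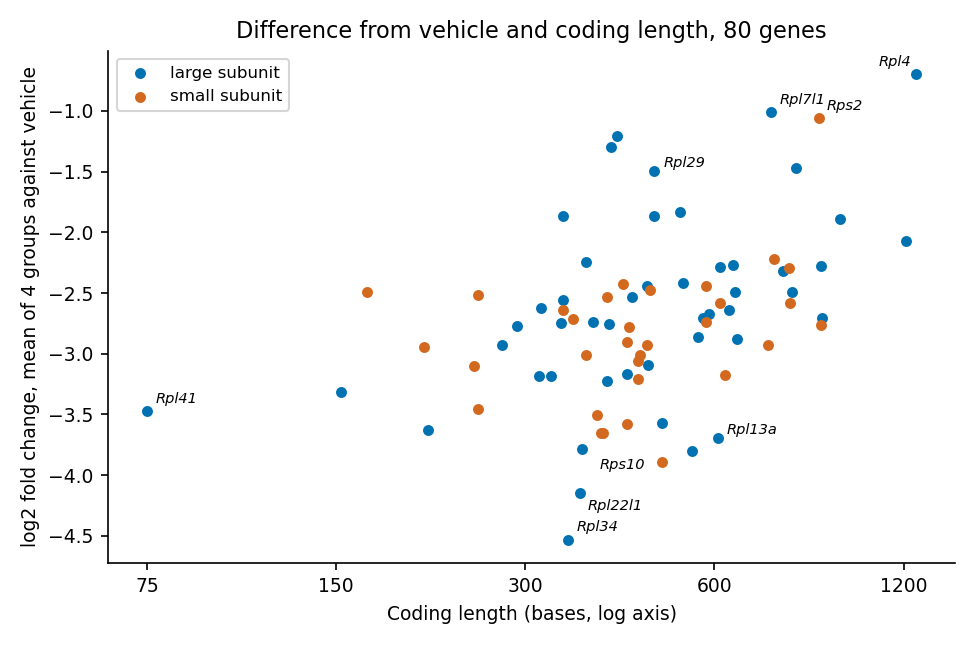
Log2 fold change of the mean of the 4 groups against vehicle for 80 protein-coding members with a mean of at least 10 CPM, against coding length on a log axis. The shortest gene, Rpl41, lies at −3.48 and the longest, Rpl4, at −0.70.

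Falls were smaller in genes with longer coding sequences. Across these 80 genes, Pearson's r between log2 fold change and log2 coding length was 0.37 in mobocertinib, 0.45 in T-DM1, 0.43 in the combination and 0.44 in resistant nodules, where the genes share the libraries and so are not independent. The 20 genes of 75 to 366 coding bases had a median of −2.94 against vehicle (mean of the 4 groups), and the 20 of 624 to 1257 bases had −2.31. With GC content r was 0.003 to 0.11. With an offset for length and GC in each library, fitted on genes outside the family, both length classes were closer, at −1.38 and −1.49.

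Because short messenger RNAs as a class were high in vehicle, the comparison was read on 3 scales. With the length and GC offset, 67, 73, 70 and 71 of 87 members fell in mobocertinib, T-DM1, the combination and resistant nodules, with medians of −1.29, −1.60, −1.42 and −1.51, where the medians of all genes were −0.15 to −0.065. On that scale 13.6%, 15.1%, 14.2% and 17.6% of all 17565 genes fitted were called lower and 9.17%, 7.53%, 9.51% and 12.3% higher. From TPM, 51, 59, 58 and 62 of 84 fell, with medians of −0.92, −1.08, −1.04 and −1.27 on the log2(TPM + 1) scale, where the medians of all genes were 1.11 to 1.27. Among all 15760 genes tested there, 3.12%, 3.52%, 3.39% and 4.80% were called lower and 55.0%, 57.5%, 56.8% and 59.7% higher. The members' median thus lay below that of all genes on each scale, and the size of the fall depended on the scale. The 1130 other messenger RNAs under 1 kb had medians of −1.38, −1.37, −1.53 and −1.75 in counts, −0.20, −0.29, −0.27 and −0.28 with the offset, and 0.22, 0.23, 0.20 and −0.016 from TPM, and 588, 567, 623 and 661 of them fell.

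**Figure D4:**
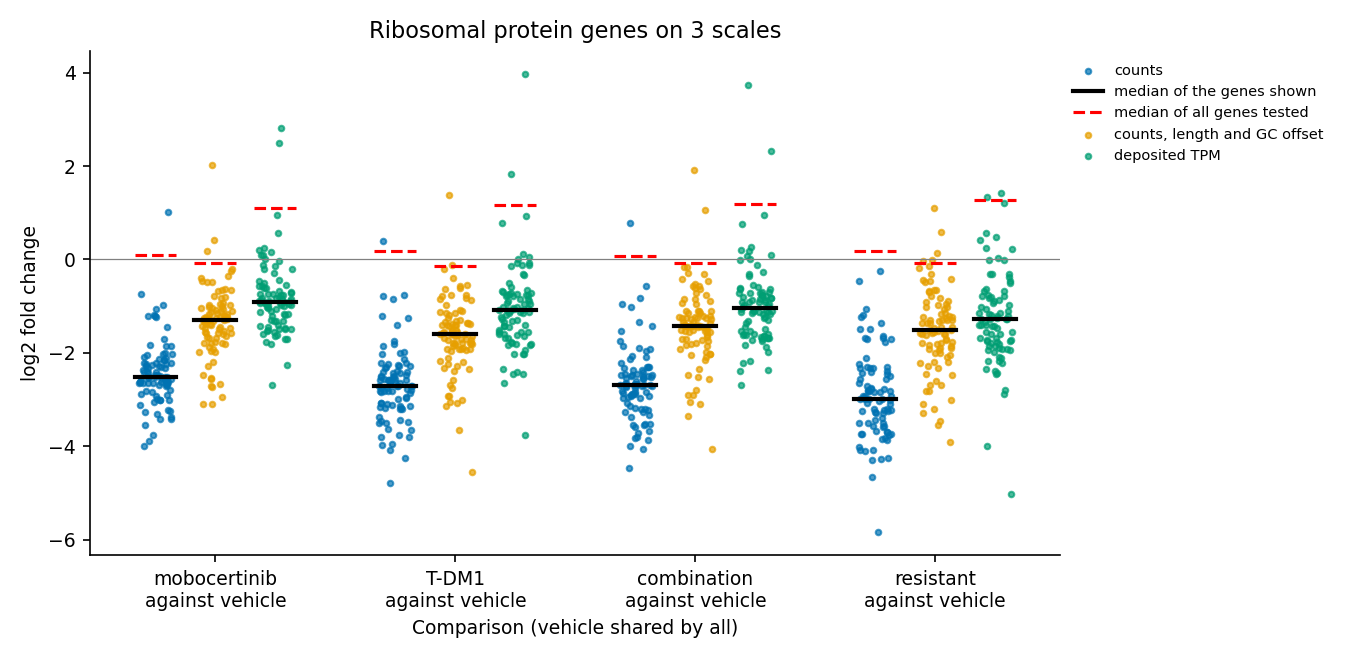
Log2 fold change against vehicle of each ribosomal protein gene from counts, from counts with a length and GC offset, and from deposited TPM. Black bars are medians of the genes shown and red dashed bars medians of all genes tested. The black bar lies below the red bar on each scale, in mobocertinib at −2.51, −1.29 and −0.92.

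A few genes gained a call or changed direction between the scales. Rps4l, which stood above vehicle without passing in counts in 3 comparisons, was called higher with the offset in mobocertinib (2.02, adjusted p = 0.00996), T-DM1 (1.38, adjusted p = 0.0409) and the combination (1.91, adjusted p = 0.0116), and from TPM in all 4 comparisons, beside a TPM median over all genes of at least 1.11. Rpl4 and Rpl7l1 were higher from TPM in all 4 comparisons, by 0.93 to 1.33 and by 0.56 to 0.79. Rpl7l1 was below the median of all genes in each, and Rpl4 below it in all but resistant nodules, where it stood at 1.33 against 1.27. Rps2 was called higher from TPM in T-DM1 (3.98) and the combination (3.73).

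Several members are paralogs that can replace a core protein in some tissues. Rpl22l1, which can stand in for Rpl22, held 55.6% and 32.7% as many counts as Rpl22 in vehicle and 10.7% to 19.9% elsewhere, so it was lower relative to its partner in each of the 12 other libraries. It stood at 1335 and 1148 CPM in vehicle, and fell by 3.88 ± 0.369 (adjusted p = 0.000261) in mobocertinib and 4.65 ± 0.38 (adjusted p = 5.91e-05) in resistant nodules, while Rpl22 fell by 2.51 ± 0.32 (adjusted p = 0.000329) and 2.93 ± 0.324 (adjusted p = 6.54e-05). Rps27l, a p53-responsive copy of Rps27, held 43.4% and 30.6% as many counts as Rps27 in vehicle and 12.2% to 22.6% elsewhere. Rpl7l1 held 7.46% and 7.10% as many counts as Rpl7 in vehicle and 7.96% to 12.7% elsewhere.

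Rps4l, called a transcribed processed pseudogene in GENCODE M21, held 0.267% and 0.694% as many counts as Rps4x in vehicle and 1.14% to 6.00% elsewhere. It stood at 7.443 and 17.98 CPM in vehicle, 27.2, 26.79 and 23.42 in mobocertinib, 25.32, 12.23 and 12.3 in T-DM1, 27.85, 21.42 and 16.32 in the combination and 16.22, 4.358 and 11.32 in resistant nodules, so that resistant 2 was lowest and all groups but mobocertinib overlapped with vehicle. Its difference was 1.02 ± 0.533 (adjusted p = 0.155) in mobocertinib. The direction in T-DM1 turned without vehicle 1 (−0.086), and that in resistant nodules (−0.25) without vehicle 2 (0.64) or resistant 2 (0.12).

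Rpl3l, the form of Rpl3 found in skeletal and heart muscle, stood at 23.35 and 25.33 CPM in vehicle, at 0.4981, 6.753 and 1.564 in mobocertinib, 0.5937, 1.796 and 0.2357 in T-DM1, 0.6901, 1.299 and 1.29 in the combination and 0.2183, 1.079 and 4.22 in resistant nodules. Mobocertinib 2 and resistant 3 were the highest outside vehicle. It fell in T-DM1 (−4.78 ± 1.19, adjusted p = 0.00997), the combination (−4.47 ± 1.18, adjusted p = 0.0116) and resistant nodules (−3.73 ± 1.15, adjusted p = 0.0204). The last call was lost without vehicle 2 (adjusted p = 0.0712) or resistant 2 (adjusted p = 0.0631). In mobocertinib it differed by −3.04 ± 1.12 (adjusted p = 0.052), and passed without mobocertinib 2 (adjusted p = 0.022). The 8 muscle markers summed to 45.29 and 9.371 CPM in vehicle and 4.634 to 869.9 elsewhere, with mobocertinib 3 highest, so their order was not that of Rpl3l. Rpl39l stood at 0 to 0.7482 CPM in all libraries and Rpl10l had a count in 3 of the 14.

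Between the groups other than vehicle, no member passed. By edgeR's quasi-likelihood test, 0 of 87 were called between the combination and mobocertinib (0% of all genes, median −0.20) and between the combination and T-DM1 (0% of all genes, median −0.0072), and in both 0 had an unadjusted p under 0.05. Between resistant and mobocertinib nodules 0 were called (0.00558% of all genes lower, median −0.46), while 21 had an unadjusted p under 0.05, as did 1394 of all 17933 genes. A difference among the 4 groups was called for 0 members (0.0279% of all genes), with 2 at an unadjusted p under 0.05, beside 1651 of all genes. limma-voom and DESeq2 called 0 as well in each of these. The smallest p for a difference among the 4 groups were those of Rpl36, Rpl34, Rps19 and Rpl41 (adjusted p = 0.472, 0.526, 0.551 and 0.59). Rpl36 stood at 686.8, 708.0 and 412.9 CPM in mobocertinib, 375.8, 440.6 and 409.4 in T-DM1, 283.4, 465.7 and 487.7 in the combination and 284.7, 209.7 and 355.7 in resistant nodules, so the resistant libraries were below those of mobocertinib and T-DM1 and overlapped with the combination.

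Within groups the members varied about as much as other abundant genes. The median SD within groups was 0.361 on the log2 scale over the 87 members, 0.365 over 1716 genes with a mean of 100 CPM or more, and 0.423 over all genes tested. The steadiest members were Rpl7 (0.172), Rpl7l1 (0.174) and Rpl4 (0.181), and the most variable were Rpl3l (1.03), Rpl24 (0.905), Rpl34 (0.848) and Rpl29 (0.676). Rpl29 stood at 255.6 and 516.5 CPM in vehicle and 63.24 to 230.8 elsewhere, with T-DM1 1 and 2, combination 2 and resistant 2 under 100 CPM beside higher libraries of their groups, and passed in T-DM1 (−1.80 ± 0.521, adjusted p = 0.02) and the combination (−1.74 ± 0.521, adjusted p = 0.0212) but not in mobocertinib (adjusted p = 0.0921) or resistant nodules (adjusted p = 0.0723). Combination 1 was the lowest of the 12 libraries outside vehicle for 43 of the 87 genes, and mobocertinib 1 and 2 were the highest for 30 and 29.

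Resistant 2 differed in another way, in the levels of the genes relative to each other. Each gene's log2 CPM was set against the median of 80 protein-coding members in the library and against its own median over the 12 libraries outside vehicle. The SD of these deviations was 0.688 in resistant 2 and 0.117 to 0.274 in the other 11, and 0.715 and 0.771 in vehicle. Rpl24 (−2.75), Rpl34 (−2.20), Rps19 (−1.58) and Rps18 (−1.49) were the lowest in resistant 2, and Rps23 (1.0), Rpl13a (0.98) and Rps3a1 (0.89) the highest. Rpl24 stood at 0.6226 CPM in resistant 2, near the floor, and its median over the 12 libraries was 7.907 CPM. It reached the required mean of 10 CPM only through vehicle (54.56 and 73.92 CPM), and the SD includes it. The 27 genes with the highest GC content (53.6% to 60.8%) had a median deviation of −0.52 there and the 27 with the lowest (40.6% to 49.5%) one of 0.25. In the TPM table resistant 2 was likewise the lowest library for Rpl34 (386.5), Rps19 (985.3) and Rps18 (356.8) and the highest of the 12 outside vehicle for Rps23 (2455) and Rps3a1 (2396). It was not apart for Rpl24 (1201 against 1237 and 1312 TPM in resistant 1 and 3) or Rpl13a (2674 against 2371 and 2336), whose levels differ greatly between the tables. Across the 80 genes Pearson's r with GC content was −0.36 in resistant 2 and −0.19 to 0.31 in the other 11. Mitochondrially encoded RNA took 6.42% of counts in resistant 2 and 0.484% to 1.57% in the other 13 libraries. The part of this in the deviations was not tested. Without resistant 2, 82 members fell between resistant and vehicle nodules, the same number as with it.

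**Figure D5:**
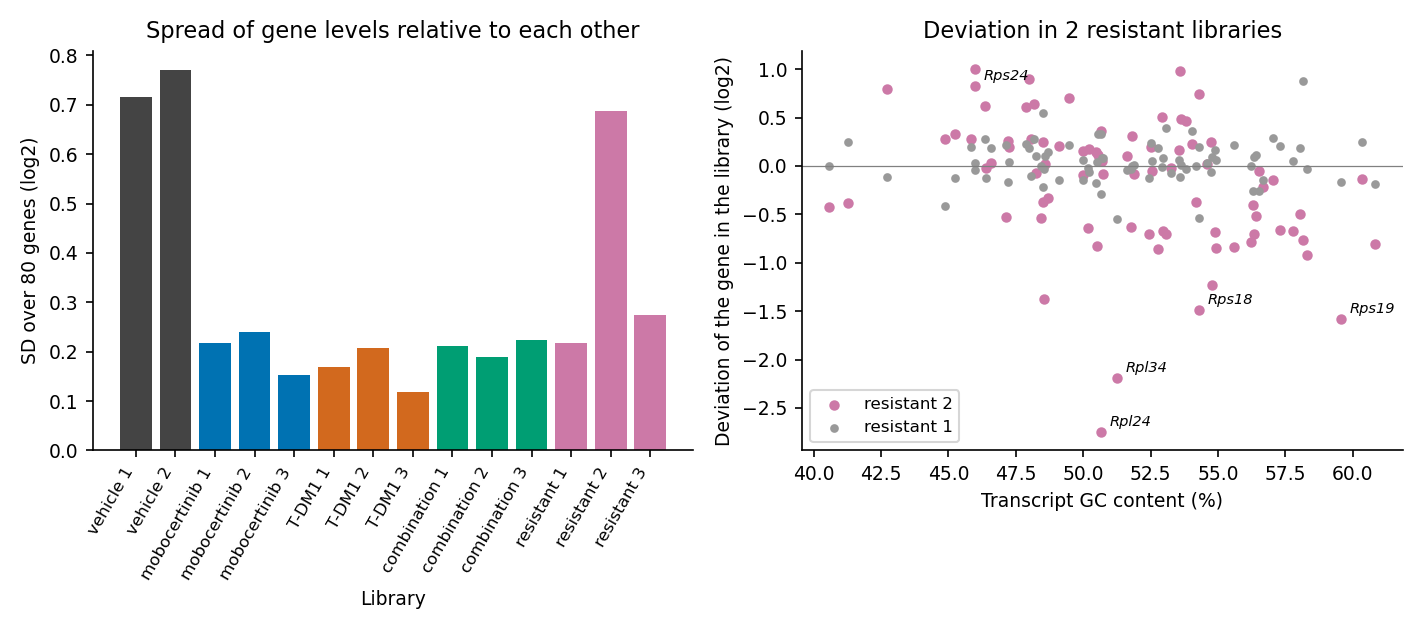
Left, SD over 80 genes of the deviation of each gene from the family's level in a library, with the gene's median over the 12 libraries outside vehicle as reference. Right, the deviations in resistant 2 and resistant 1 against the GC content of the transcript. Resistant 2 stands at 0.688 against 0.117 to 0.274 in the other 11 libraries outside vehicle.

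The 2 deposited tables did not give the same level for every member. Counts were turned into values per length and library total and set against the deposited TPM of 81 protein-coding members that reach 10 TPM. Of these, 67 lay within 1 of each other on the log2 scale (median over libraries), 5 were over 2 lower in TPM (Rpl12, Rpl5, Rpl27, Rps12 and Rpl10) and 3 over 2 higher (Rpl24, Rpl13a and Rps10). Rpl12 stood at 11.3 to 212.2 TPM where its counts correspond to 849.7 to 6027, and Rpl13a at 1961 to 11690 TPM where its counts correspond to 48.59 to 377.9. Rps12 was listed at 0 TPM in T-DM1 1 and resistant 2. Rps2 stood at 72.82 to 132.6 TPM in both vehicle libraries, mobocertinib 3, resistant 1 and resistant 3, and at 876.5 to 2507 in the other 9, a gap that its counts did not show, although they too put mobocertinib 3, resistant 1 and resistant 3 lowest outside vehicle (344.6, 387.6 and 494.7 CPM). Of the 83 protein-coding members, 52 share more than 50% of their 50-base stretches with transcripts of other genes, and 11 share over 20% of their exon bases with a neighbor. The sources used here do not say how reads with several matches were counted, and the levels of such members are uncertain. The 32 tested members with at most 50% shared had medians of −2.55, −2.73, −2.72 and −3.0 against vehicle, and the 55 with more had −2.49, −2.62, −2.67 and −2.84.

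Of the ribosomal proteins that the rule misses, Rack1, Fau and Rpl36al fell in all 4 comparisons with vehicle. Rack1, a scaffold on the small subunit, stood at 7668 and 7763 CPM in vehicle and 843.5 to 1918 elsewhere, and fell by 2.34 ± 0.32 (adjusted p = 0.000405) in mobocertinib. Fau, a fusion that yields Rps30, fell by 2.56 ± 0.401 (adjusted p = 0.000754), and Rpl36al by 2.73 ± 0.31 (adjusted p = 0.000261).

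Other genes of the translation machinery were lower in part. Of all genes tested, 16.1%, 14.9%, 17.4% and 19.0% were called lower in mobocertinib, T-DM1, the combination and resistant nodules. The shares called higher were 16.8%, 16.7%, 17.6% and 22.0%. Of 77 mitochondrial ribosomal protein genes, which serve the ribosome inside mitochondria, 62, 61, 64 and 66 fell in mobocertinib, T-DM1, the combination and resistant nodules and 0 rose, with medians of −1.32, −1.38, −1.56 and −1.75. With the offset these were −0.73, −0.85, −0.77 and −1.06. Of 12 elongation and other TOP-type factors, 6 fell in each comparison and 1 or 2 rose. Their medians were −0.85, −0.99, −0.93 and −0.76 in counts and −0.69, −0.83, −0.75 and −0.33 with the offset. Their summed share of counts was 2.09% and 1.26% in vehicle and overlapped with the 1.275% to 2.16% of the other libraries. Eef1b2, an exchange factor for the elongation factor eEF1A, stood at 4989 and 4401 CPM in vehicle and 399 to 793 elsewhere, and fell by 2.78 ± 0.319 (adjusted p = 0.000261) in mobocertinib. Of 13 subunits of initiation factor 3, 5 fell and 2 rose in each comparison, with Eif3k at −1.52 ± 0.252 (adjusted p = 0.00103) in mobocertinib. Of 25 short subunits of oxidative phosphorylation, 25 fell in each comparison, with medians of −2.29, −2.52, −2.56 and −2.95 in counts and −0.92, −1.11, −0.96 and −1.11 with the offset.

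Of 24 factors that build ribosomes, 4 fell and 3 rose in mobocertinib, with a median of −0.16, shares near those of all genes (16.1% lower and 16.8% higher). Nop10, a protein of the particles that pseudouridylate ribosomal RNA, fell by 1.95 ± 0.294 (adjusted p = 0.00063), and the nucleolar protein gene Ncl rose by 1.49 ± 0.313 (adjusted p = 0.00378), from 116.9 and 168.3 CPM in vehicle to between 329.8 and 710.4 in the other 12. Of 15 genes of the mTOR and S6 kinase pathway, whose messenger RNAs are mostly long, 6, 4, 7 and 7 rose in the 4 comparisons and 0, 1, 0 and 1 fell. Among the 2459 messenger RNAs over 5 kb outside the family, 1063, 1036, 1108 and 1413 rose and 64, 45, 64 and 49 fell. Larp1, which binds TOP messenger RNAs, rose by 1.5 ± 0.324 (adjusted p = 0.00447) in mobocertinib, and Eif4ebp2, a translation repressor that mTOR inactivates, by 1.98 ± 0.309 (adjusted p = 0.000754). The median of the 15 was 0.59 in counts and −0.17 with the offset in mobocertinib, and −0.30 to −0.12 with the offset over the 4 comparisons.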

How the data were processed

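RNA sequencing of 14 libraries was used in 2 deposited tables of the whole series. The authors deposited raw counts per gene symbol, whole numbers that sum to 19.3 to 31.3 (in units of 1e6) per library. They also deposited TPM, per transcript length and scaled to the same total in each library. STAR, RSEM and mm10 are named, per the submitters' processing notes, without roles. The sources used here give no version, annotation or strand setting.

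Counts were fitted with edgeR 4.0.16 (R 4.3.3; TMM, filterByExpr by group, robust quasi-likelihood) over 17933 genes and all 14 libraries, with 9 residual degrees of freedom. A gene was called at an adjusted p below 0.05. CPM are TMM-normalized, and the SE is the log2 fold change divided by the root of F. TPM were tested as log2(TPM + 1) with limma 3.58.1, for genes with 1 TPM in 2 libraries. Gene lengths and positions came from GENCODE M21. Members and gene lists were chosen with earlier results of these data known. Genes were named by highest and lowest TPM, largest and smallest difference from vehicle, smallest p among the other groups, role and paralog pairs. Others named for their spread, their deviations or their 2 tables were chosen after their values were seen. The alternatives were other scaling factors and filters, limma-voom, DESeq2 1.42.0, TPM, a length and GC offset, and leaving out each library. Counting only protein-coding members, and adding Fau, Rpl36al and Rack1 to the share, were added after seeing the data. A further gene, and the planned share that includes it, are not reported here.

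Over 13 replicate pairs, chi-square divided by its degrees of freedom was 87.9 to 504, above sampling noise, and 0 pairs were identical. Tested on simulated data for mobocertinib against vehicle (17504 genes), 4%, 52%, 64% and 88% of 50 genes each changed 2-, 4-, 8- and 16-fold were called, with 4 false calls. Far fewer genes were changed there than the 5905 of 17933 called in the real comparison. The adjustment was thus stricter in the simulation, and its rates do not carry over to the real comparison.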

Additional observations from a re-analysis of the deposited data

How the results depend on the processing

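With 2 vehicle libraries, every comparison with vehicle rests on how those 2 stand apart. The number of members called moved by over 1.5 times under 1 setting, TPM in mobocertinib against vehicle, with 54 called (51 lower and 3 higher); the cause was not tested. Leaving out 1 library at a time gave 78 to 81 called in mobocertinib, 78 to 83 in T-DM1, 80 to 82 in the combination and 80 to 82 in resistant nodules, and 0 in each comparison without vehicle. The share of counts moved beyond 1 SD to 22.2% in vehicle and 5.38% in T-DM1 without mitochondrial and ribosomal RNA genes, and to 21.9% and 5.54% with Fau, Rpl36al and Rack1 added, an alternative chosen after seeing the data. By TPM it was 32.5% in vehicle, 16.2% in mobocertinib, 13.6% in T-DM1, 14.7% in the combination and 11.9% in resistant nodules. Without 1 library the mean share was 20.7% to 21.6% in vehicle, 5.70% to 7.18% in mobocertinib, 5.30% to 5.33% in T-DM1, 4.93% to 6.44% in the combination and 4.42% to 4.66% in resistant nodules.

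For single genes, 1654 values kept their direction and side of the threshold, 88 lost and 11 gained a call, and 27 reversed. In the order mobocertinib, T-DM1, combination and resistant, TPM reversed Rps2 (2.82, 3.98, 3.73 and 1.42), Rpl7l1 (0.57, 0.79, 0.76 and 0.56), Rpl4 (0.95, 0.93, 0.95 and 1.33) and Rpl7 (0.019, 0.051, 0.017 and 0.030), and also Rpl3 in the combination (0.26). Rpl39l reversed in mobocertinib with the offset (0.41) and TPM (0.10), and in the combination with the offset (1.06), with TPM (0.20) and without combination 1 (0.0081; range on leaving out 1 library −1.32 to 0.0081). Rps4l reversed in T-DM1 without vehicle 1 (range −0.086 to 1.27), and in resistant nodules with the offset (1.10), with TPM (1.21), without vehicle 2 (0.64) and without resistant 2 (0.12; range −0.73 to 0.64). The causes were not tested. No paired analysis was possible because the labels give no replicate numbers. At this depth Rpl10l and Rps12l1 could not be tested, and Rpl39l stood at 0 to 0.748 CPM.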
